A study of Mus musculus with 9 samples.

Results

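This section describes 7 intermediate filament genes outside the keratin family in 9 RNA sequencing libraries from mouse dorsal root ganglia (DRG), lumbar spinal cord and hind paw, with 3 samples per tissue. The genes were taken by name from the filament family. They are Nefl, Nefm and Nefh (neurofilament light, medium and heavy chain), Prph (peripherin), Ina (alpha-internexin), Vim (vimentin) and Nes (nestin), 7 of the 22609 genes in the count files. All 7 were tested, among 16091 genes that passed a filter on low counts. Every sample came from male C57 mice of 8 to 12 weeks that had received paclitaxel (PTX), a chemotherapy drug that stabilises microtubules, intraperitoneally at 2 mg/kg in 2 injections with a day between them. Every mouse also carried an antagonist of the lymphotoxin-beta receptor (LTβR), at 15 µg per site, given into the paw and intrathecally. The titles place the antagonist on days 1 and 4, whereas the series text places it between the PTX doses and 1 day after PTX. Tissue was taken 6 days after the last PTX injection as L3 to L5 ganglia, lumbar cord and punch biopsies of the hind paw. Mice given control IgG are not analysed here, so no effect of PTX or of the antagonist was measured. The groups differ by tissue and, with it, by their place relative to the antagonist injections, and these cannot be told apart. The labels leave unsaid whether each sample was a different mouse, and p-values therefore measure the spread between these samples, which may be partly technical.

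Intermediate filaments are rope-like polymers that give cells mechanical strength. In axons, the neurofilament subunits Nefl, Nefm and Nefh assemble together, with Ina as a partner in the central nervous system and Prph in the peripheral nervous system, and their amount is known to set axon calibre. Large myelinated sensory neurons are rich in neurofilaments, and small unmyelinated ones in peripherin. Vim is the filament of fibroblasts, endothelium and many glia, and Nes, which polymerises together with Vim, is known from neural progenitors, Schwann cells and blood vessel cells.

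Each library had between 15537545 and 23229724 reads assigned to a gene, and levels are given as CPM, the reads of a gene per 1e6 assigned reads, on library sizes scaled by TMM. A level of 3 reads, taken as the floor, equals 0.134 to 0.185 CPM. The tissue labels were set against marker genes. The sensory neuron channel Scn10a averaged 1045 CPM in DRG against 1.29 CPM in the cord. The motor neuron enzyme gene Chat averaged 0.0954 CPM in DRG, under the floor, against 27.6 CPM in the cord. Of 6 motor neuron markers, 4 were lower in DRG and 2 higher. The higher ones were Isl1 (91.8 against 1.89 CPM) and Isl2 (163 against 2.33 CPM). Summed keratinocyte markers lay at 32670 to 49510 CPM in paw and at 12.6 to 29.0 CPM elsewhere. Some libraries held transcripts of other tissues. Summed skeletal muscle markers reached 606 CPM in DRG sample 1 and 943 CPM in DRG sample 2 against 31.6 CPM in DRG sample 3, and 13312 to 17005 CPM in paw. In spinal cord sample 3, summed fibroblast markers were at 1160 CPM (486 and 387 CPM in samples 1 and 2) and summed Schwann and satellite cell markers at 8559 CPM (3122 and 3319 CPM). The results on Vim and Nes are given with and without that library. Marrow neutrophil markers summed to 805 CPM in spinal cord sample 1 (222 and 258 CPM in samples 2 and 3) and to 451 CPM in DRG sample 2 (195 and 166 CPM in samples 1 and 3), and red cell markers to 120 CPM in spinal cord sample 1 (8.86 and 17.5 CPM). The members' calls were the same without either of these libraries.

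The neurofilament triplet was among the most abundant RNA of the ganglia, lower in spinal cord and close to absent from paw. Nefl, the subunit on which the others build, measured 4392, 5203 and 4739 CPM in DRG samples 1 to 3. It measured 1607, 1829 and 1415 CPM in spinal cord and 3.23, 2.53 and 4.89 CPM in paw. By assigned reads it ranked 4, 4 and 5 among all genes in the DRG samples, and 38, 29 and 38 in the spinal cord samples. The 3 tissues did not overlap for this gene. Over all genes tested, the samples of DRG and cord did not overlap for 64.5%, those of paw and ganglia for 83.4%, and those of paw and cord for 83.5%. Nefm, the medium chain, was at 4033, 4815 and 4509 CPM in DRG, at 2143, 2387 and 1857 CPM in spinal cord, and at 3.71, 3.76 and 7.13 CPM in paw. Nefh, the heavy chain, was at 2749, 3278 and 2936 CPM in DRG, at 1244, 1400 and 1124 CPM in spinal cord, and at 2.04, 1.42 and 3.36 CPM in paw. Both genes kept the tissue order of Nefl with no overlap. Together the triplet took 1.16 ± 0.0939% of the assigned reads of the ganglia, 0.507 ± 0.0537% of those of the cord and 0.00111% of those of paw (mean ± SD, n = 3). In bulk tissue, fewer cells of a type and less RNA per cell cannot be told apart.

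Nefh carries a long tail that is rich in repeats of lysine, serine and proline, a known site of phosphorylation in axons. The repeats are shown because they make this transcript internally repetitive. The coding sequences were searched for in-frame codons of that tripeptide, spelled AAATCNCCN or AAGTCNCCN on the coding strand. The search found 49 in Nefh, 4 in Nefm, 4 in Nes and 0 in Nefl, Prph, Ina and Vim. It left out the serine codons AGT and AGC, so these counts are lower limits for the tripeptide. The stretch below, in which capitals mark the matches, spans bases 1877 to 1997 of the Nefh transcript (GENCODE annotation of GRCm38, sense strand) and recurs with the same letters at bases 2039 to 2159.

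Nefh repeat: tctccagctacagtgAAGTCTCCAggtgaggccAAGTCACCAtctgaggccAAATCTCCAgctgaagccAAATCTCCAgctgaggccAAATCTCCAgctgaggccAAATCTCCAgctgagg

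Of the 50-base windows of this transcript, the length of the reads, 150 of 3945 (3.80%) occurred in it more than once, and 0 occurred on the same strand of another gene. Nes had 80 repeated windows of 6077 (1.32%), and the other members had 0. At an exact match of 50 bases the 7 transcripts could therefore be told from annotated transcripts of other genes on their strand. The rest of the genome, and the mm9 build used for the counts, were not searched. Nefl and Nefm are neighbouring genes on chromosome 14, and 31.8% of the Nefl windows lie opposite an annotated Nefm transcript. For Ina, on chromosome 19, 12.8% of the windows lie opposite Nt5c2. The strand setting of the counting is not given in the sources used here, so reads of such overlapping parts may have been left out or shared between partners.

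The comparison of DRG with spinal cord sets primary sensory neurons beside a central tissue that holds interneurons, motor neurons and the fibres of many tracts. All 7 members passed the test here, 6 higher and 1 lower in DRG. Of all genes tested, 59.6% passed (29% higher in DRG and 30.6% lower), so a call is common in this comparison. The median log2 fold change of the 7 genes was 1.56, beside -0.02 over all genes tested. Nefl was 2.95-fold higher in DRG (log2 fold change 1.56 ± 0.19 SE, adjusted p = 2.52e-05, edgeR quasi-likelihood test with Benjamini-Hochberg adjustment). Nefh was 2.38-fold higher (1.25 ± 0.20 on the log2 scale, adjusted p = 0.0002), and Nefm 2.09-fold higher (1.06 ± 0.21, adjusted p = 0.000956). Markers of myelinated sensory neurons did not go one way, with 2 of 8 higher and 4 lower in DRG and sums of 610 to 638 CPM there against 943 to 1043 CPM in the cord, where several of these genes are expressed as well. Their part in the triplet differences was not tested. The triplet moved by 2- to 3-fold between the tissues, whereas Prph and Ina moved much further and in opposite directions.

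**Figure D1:**
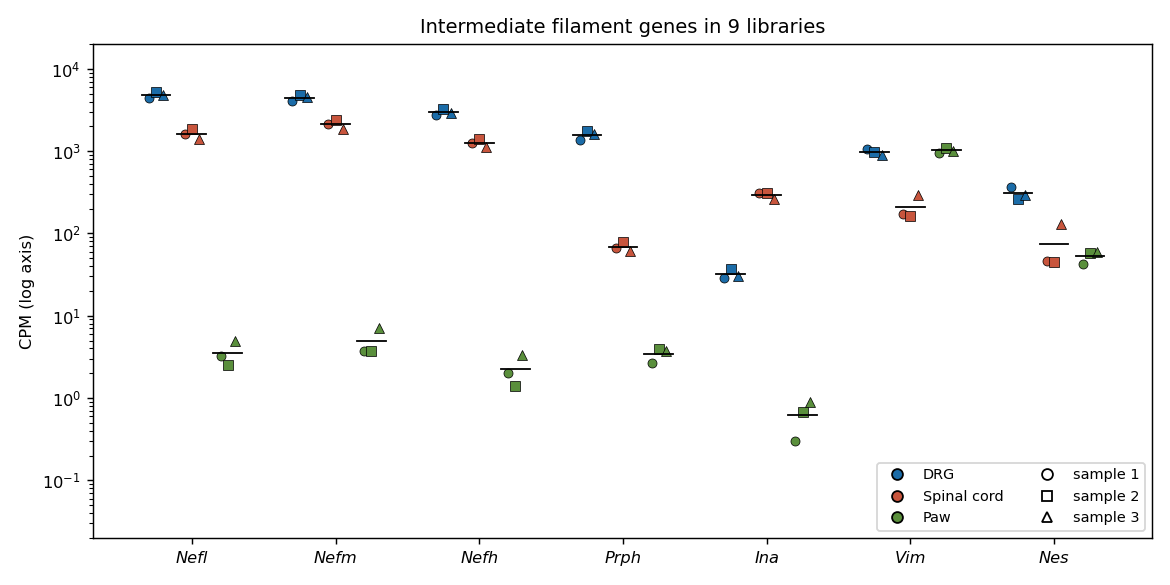
Level of each intermediate filament gene in each of the 9 libraries, in CPM on a log axis. Points are samples (circle, square and triangle for samples 1, 2 and 3), coloured by tissue, and bars are tissue means. Nefl, Nefm, Nefh and Prph were highest in DRG, Ina was highest in spinal cord, and Vim was at about the same level in DRG and paw.

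Prph, the peripheral neuron subunit, measured 1372, 1772 and 1595 CPM in DRG. It measured 66.2, 79.7 and 61.4 CPM in spinal cord and 2.69, 3.95 and 3.77 CPM in paw. It was 22.8-fold higher in DRG than in spinal cord (log2 fold change 4.51 ± 0.17 SE, adjusted p = 2.25e-09). Ina, the central neuron subunit, showed the reverse order of the nervous tissues. It measured 309, 311 and 259 CPM in the cord, 28.9, 36.7 and 30.4 CPM in the ganglia, and 0.299, 0.679 and 0.883 CPM in paw. It was 9.17-fold lower in DRG than in spinal cord (log2 fold change -3.20 ± 0.16 SE, adjusted p = 1.38e-08). The samples of DRG and spinal cord did not overlap for either gene. Markers of unmyelinated sensory neurons moved with Prph, as 9 of 9 were higher in DRG and their sum was 3192 to 3923 CPM there against 45.6 to 53.3 CPM in the cord. Of those 9 markers, Nppb had 0 reads in spinal cord samples 2 and 3 and Mrgprd in sample 2. Their part in the Prph difference was not tested.

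The sequences before the start sites of Prph and Ina are shown because these are the subunits with the largest and opposite differences between ganglion and cord. They are the 250 bases before the annotated start in RefSeq's table for GRCm38.p6, which holds 4 of the 7 members (Prph, Ina, Vim and Nes), whereas the count files used mm9. Capitals mark matches on either strand to any of 4 motifs. The TATA box was searched as TATAAA and the GC box as GGGCGG. The CCAAT box was searched by the letters of its name. The AP-1 site was searched as TGANTCA. No match overlapped another.

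Prph, chr15:99054924-99055173, plus strand: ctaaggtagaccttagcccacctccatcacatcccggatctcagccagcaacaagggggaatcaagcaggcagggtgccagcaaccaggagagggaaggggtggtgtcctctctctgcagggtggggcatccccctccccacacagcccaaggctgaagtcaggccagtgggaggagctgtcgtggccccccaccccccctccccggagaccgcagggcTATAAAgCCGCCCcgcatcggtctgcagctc
Ina, chr19:47014431-47014680, plus strand: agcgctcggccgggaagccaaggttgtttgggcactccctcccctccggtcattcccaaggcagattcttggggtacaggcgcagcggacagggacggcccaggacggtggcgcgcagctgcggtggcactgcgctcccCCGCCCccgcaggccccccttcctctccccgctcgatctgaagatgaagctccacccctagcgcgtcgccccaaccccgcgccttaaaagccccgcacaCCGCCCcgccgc

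The Prph promoter held a TATA box 31 bases and a GC box 24 bases before the start, and the Ina promoter held GC boxes at 111 and 12 bases and no TATAAA. The Vim promoter, on chromosome 2, held a TATA box at 32 bases and CCAAT boxes at 196 and 94 bases, and the Nes promoter, on chromosome 3, held GC boxes at 73 and 62 bases. None of these 4 held the AP-1 letters. Among 32851 promoters of the same length in the table, 12.4% held a TATA box, 33.8% a CCAAT box, 32.7% a GC box and 6.75% an AP-1 site by these letters. These matches are letters in a window and were not set against any measurement of binding.

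The 2 tissues also differed in the make-up of their neuronal filament RNA. To set subunits against each other, reads were divided by transcript length in kilobases (kb). Each gene was then given as a percentage of the summed value of Nefl, Nefm, Nefh, Prph and Ina in its library. Full lengths were used, although 31.8% of the Nefl and 12.8% of the Ina windows lie opposite another gene. Reads there may have been left out, so orders and shares per kb within a tissue carry this limit. Prph held 18.7, 19.9 and 19.7% of this sum in DRG samples 1 to 3 and 2.28, 2.45 and 2.41% in spinal cord. Ina held 0.226 ± 0.011% in DRG and 5.82 ± 0.312% in spinal cord (mean ± SD, n = 3). The peripheral partner was thus the minor subunit of the cord, and the central partner the minor subunit of the ganglion. Nefm held 30.7 ± 0.378% in DRG and 40.9 ± 0.268% in spinal cord, a difference of -10.3 percentage points. Nefl differed least, at 32.5 ± 0.415% and 30.7 ± 0.281%, and Nefh held 17.2 ± 0.289% and 20.2 ± 0.306%. The DRG and spinal cord values did not overlap for any of the 5 genes, and each exact permutation test (two-sided, 3 against 3) gave p = 0.1 with an adjusted p of 0.1 over the 5, the smallest p this design allows.

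Within the triplet the proportions varied little among the samples of DRG or of spinal cord. The ratio of Nefm to Nefl per kb was 0.931, 0.938 and 0.965 in DRG and 1.35, 1.32 and 1.33 in spinal cord, against a wider 1.16, 1.51 and 1.48 in paw, where reads were few. By these full-length values Nefl led Nefm in every DRG sample and trailed it in every spinal cord sample. Which of them led within a tissue could change if reads from the part of Nefl opposite Nefm were left out. The difference of the ratio between DRG and spinal cord does not depend on the length chosen. The ratio of Nefl to Nefh was 1.89, 1.88 and 1.91 in DRG, 1.53, 1.54 and 1.49 in the cord, and 1.88, 2.11 and 1.72 in paw. When the sum held Nefl, Nefm and Nefh only, the difference between DRG and spinal cord was 7.02 percentage points for Nefl in place of 1.81, -6.42 points for Nefm and -0.60 in place of -3.01 points for Nefh. Without division by length it was 4.44 points for Nefl, 10.1 in place of 17.0 points for Prph and -1.83 points for Nefh, all in the same direction.

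**Figure D2:**
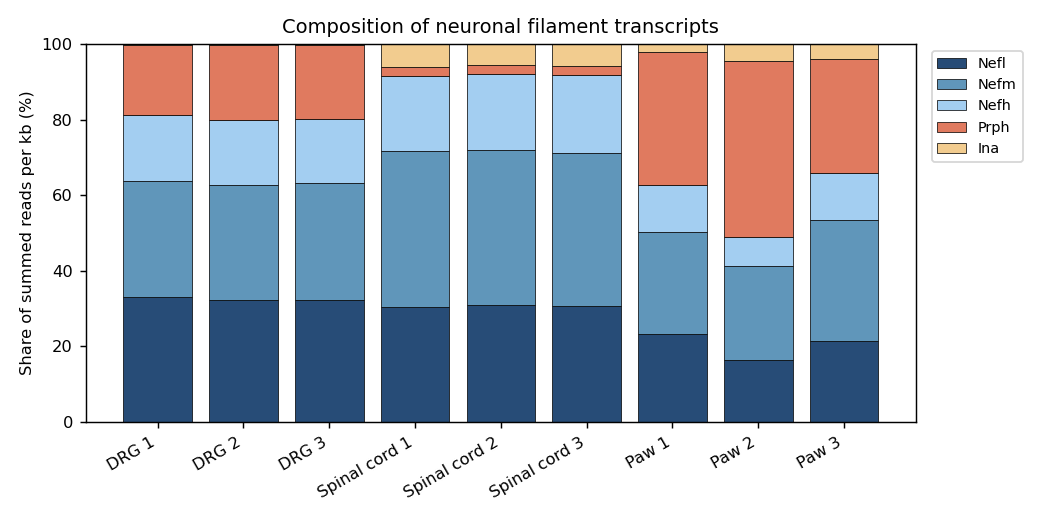
Share of Nefl, Nefm, Nefh, Prph and Ina in their summed reads per kb, in percent, for each library. Prph took 18.7 to 19.9% in DRG and 2.28 to 2.45% in spinal cord. The paw bars rest on 5 to 121 reads per gene and library.

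Ranked by mean CPM per kb, the order in DRG was Nefl (1414), Nefm (1335), Prph (848), Nefh (748), Vim (446), Nes (49.9) and Ina (9.87). Nefl and Nefm overlapped there, as did Prph and Nefh. In spinal cord the order was Nefm (639), Nefl (478), Nefh (315), Vim (95.7), Ina (90.5), Prph (37.1) and Nes (12.0). Vim and Ina overlapped there, and the other neighbours did not. In every tissue the places of Nefl and Ina carry the limit on length given above. In paw, Vim (464) was followed at a distance by Nes (8.62), Prph (1.86), Nefm (1.46), Nefl (1.05), Nefh (0.569) and Ina (0.192), with overlap between each of Prph, Nefm, Nefl and Nefh and its neighbour.

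Neuronal filament genes were also set against other neuronal transcripts of the same library, since the tissues may hold different amounts of neuronal RNA. The reference was the mean log2 CPM of 10 pan-neuronal genes (Rbfox3, Snap25, Syt1, Elavl3, Elavl4, Uchl1, Tubb3, Stmn2, Eno2 and Syn1), of which 5 were higher and 3 lower in DRG than in spinal cord. On that log2 scale Nefl stood at 2.86, 2.80 and 2.79 in DRG and at 1.76, 1.88 and 1.76 in spinal cord. Its mean difference was 1.02, in the same direction and smaller than the 1.56 measured in CPM. The differences were 0.52 for Nefm, 0.70 for Nefh, 3.96 for Prph and -3.75 for Ina. The 2 tissues did not overlap for any of the 5 genes, each with an exact permutation p of 0.1, the smallest possible. For the triplet the size, and for Nefm under the choices below the sign, depended on the reference genes. Without Stmn2, Tubb3 and Uchl1, which were higher in DRG, every difference is bound to rise, and they were 1.64 for Nefl, 1.14 for Nefm, 1.32 for Nefh, 4.59 for Prph and -3.12 for Ina. Without Snap25, Elavl3 and Eno2, which were lower in DRG, every difference is bound to fall, and they were 0.41 for Nefl, -0.086 for Nefm, 0.098 for Nefh, 3.36 for Prph and -4.35 for Ina. The direction of Nefm on this scale thus rests on the reference chosen and the difference of Nefh nearly vanished under one choice, whereas Nefl, Prph and Ina kept their directions under both. The second choice was added after the data were seen.

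**Figure D3:**
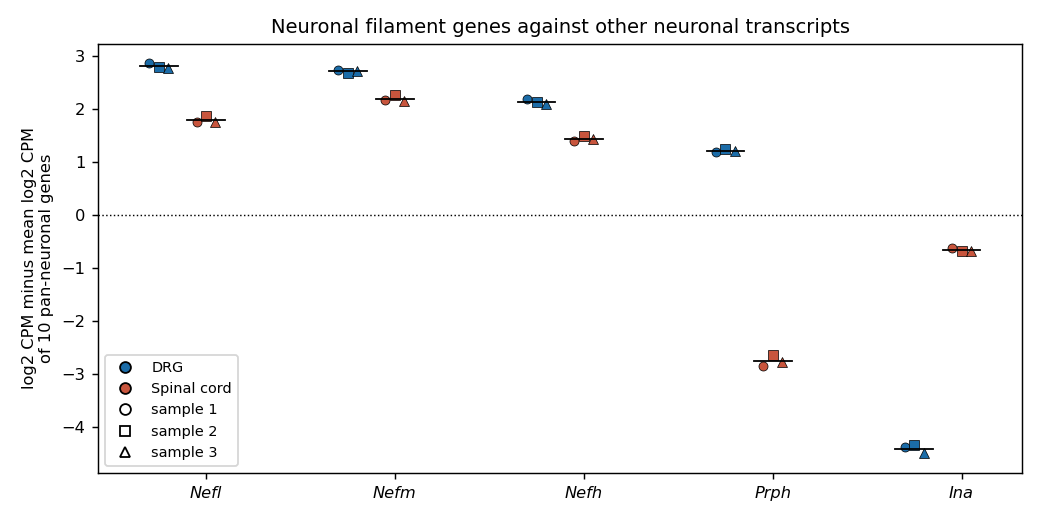
Neuronal filament genes relative to 10 pan-neuronal genes in DRG and spinal cord, as log2 CPM of the gene minus the mean log2 CPM of the list. Points are samples and bars are means. The difference between DRG and spinal cord was 3.96 for Prph and -3.75 for Ina, and 0.52 to 1.02 for Nefl, Nefm and Nefh with this list of 10, though the value for Nefm turned to -0.086 without Snap25, Elavl3 and Eno2.

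Paw holds the endings of sensory axons whose cell bodies lie in the ganglia, and little neuronal filament RNA was counted there. Over the 3 paw libraries together, Nefm had 244 reads, Nefl 178, Prph 173, Nefh 114 and Ina 31. These counts lie above the floor of 3 reads in every library, with 5 reads of Ina in paw sample 1 as the lowest. Against DRG, 6 of the 7 members were lower in paw and 0 higher, where 80.5% of all genes tested passed (39.7% higher and 40.8% lower). Nefl was 1341-fold lower (log2 fold change -10.39 ± 0.28 SE, adjusted p = 2.89e-11), Nefh 1308-fold lower (-10.35 ± 0.30) and Nefm 912-fold lower (-9.83 ± 0.31). Prph differed by -8.83 ± 0.21 and Ina by -5.67 ± 0.23 on the log2 scale, and both passed the test. The median over the 7 members was -8.83, beside -0.02 over all genes tested. The 10 pan-neuronal genes were all lower as well, with a median of -8.28 and sums of 71.5 to 91.5 CPM in paw against 7045 to 11533 CPM in the nervous tissues. Their part in the filament differences was not tested.

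Against spinal cord, 5 members were lower in paw and 1 higher, where 81.6% of all genes tested passed (39.9% higher and 41.7% lower). The comparison shares its paw libraries with the one above. Ina was 467-fold lower in paw (log2 fold change -8.87 ± 0.23 SE, adjusted p = 2.14e-11). Nefh, Nefl and Nefm were 550-, 454- and 436-fold lower, at -9.10 ± 0.29, -8.83 ± 0.27 and -8.77 ± 0.29 on the log2 scale. Prph had the smallest difference of the 5 neuronal members, 19.9-fold (-4.31 ± 0.18). The median was -8.77 over the members and -0.03 over all genes tested. Within the small filament RNA of paw, Prph held the largest mean share per kb, at 37.2 ± 8.38%, and lay between 30.1 and 46.5%. Nefm held more than Prph in paw sample 3, so that the order of subunits in paw differed among samples.

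**Figure D4:**
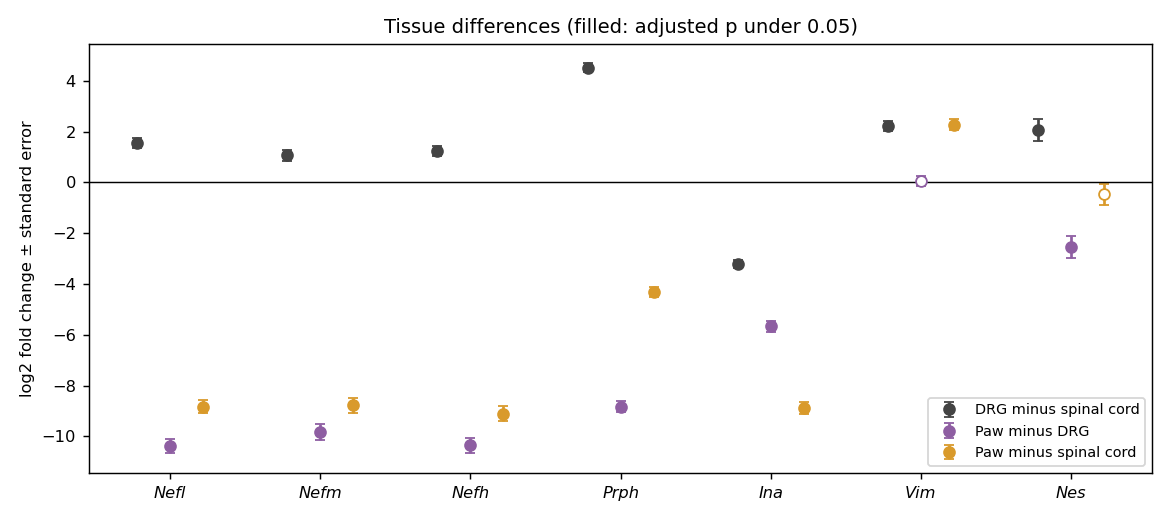
Log2 fold change of each gene between tissues, with its standard error. Filled symbols passed an adjusted p under 0.05. The open symbols are Vim in paw against DRG and Nes in paw against spinal cord.

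Vim was the only member with a high level in paw, and its levels in paw and DRG could not be separated. It measured 1065, 971 and 896 CPM in the ganglia, 172, 163 and 295 CPM in the cord, and 935, 1101 and 1014 CPM in paw. DRG and paw overlapped (log2 fold change 0.06 ± 0.20 SE, adjusted p = 0.804), and the sign turned to -0.01 without DRG sample 3. Vim was 4.66-fold higher in DRG than in spinal cord (2.22 ± 0.21 on the log2 scale, adjusted p = 3.99e-06) and 4.85-fold higher in paw than in spinal cord (2.28 ± 0.21, adjusted p = 1.12e-06). In paw it took 0.105% of assigned reads, most of what the 7 genes held. Together they took 0.112 ± 0.0122% of assigned reads there, 0.572 ± 0.0451% in the cord and 1.44 ± 0.103% in the ganglia (mean ± SD, n = 3).

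Nes was highest in DRG, where it measured 367, 258 and 292 CPM. It measured 46.8, 44.4 and 129 CPM in spinal cord and 42.0, 57.6 and 58.8 CPM in paw. Spinal cord sample 3 stood well above its fellows and above every paw sample, while the other two spinal cord samples lay within the paw range. Nes was 4.18-fold higher in DRG than in spinal cord (log2 fold change 2.06 ± 0.42 SE, adjusted p = 0.00345) and 5.79-fold lower in paw than in DRG (-2.53 ± 0.43, adjusted p = 0.000741). Paw and spinal cord overlapped and the test was not passed (-0.47 ± 0.41, adjusted p = 0.318). Without spinal cord sample 3, the log2 fold change between DRG and spinal cord was 2.76 for Nes and 2.56 for Vim. Between paw and spinal cord it was then 0.25 for Nes, with an adjusted p of 0.220, and 2.64 for Vim.

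Some lists of non-neuronal markers moved with Vim and Nes between the nervous tissues and others did not. All 8 Schwann and satellite markers were higher in DRG than in spinal cord, as were 6 of 7 fibroblast markers, whose sums were 2264 to 3343 CPM in the ganglia. Skeletal muscle markers were also higher in DRG (6 of 6), with sums of 606, 943 and 31.6 CPM in DRG samples 1 to 3. Several lists mostly went the opposite way. Of 8 endothelial and pericyte markers, 1 was higher in DRG and 4 lower. Of 6 macrophage and microglia markers, 1 was higher and 4 lower. Of 5 ependymal markers, 1 was higher and 4 lower, and 6 of 6 astrocyte markers were lower. Of 5 keratinocyte markers, 1 was lower and 4 not called. None of the 7 marrow neutrophil or 3 red cell markers was called. Of 8 Schwann and satellite markers, 8 were lower in paw than in DRG and 5 lower than in spinal cord. Of 7 fibroblast markers, 3 were higher in paw than in DRG and 7 higher than in spinal cord. Of 8 endothelial and pericyte markers, 5 and 6 were higher, with 0 and 1 lower. All 5 keratinocyte and 6 skeletal muscle markers were higher in both comparisons. Macrophage and microglia markers were more often higher than lower in both. Astrocyte, ependymal, marrow neutrophil and red cell markers were more often lower than higher. Of all genes tested, 80.5% passed against DRG and 81.6% against spinal cord. The summed Schwann and satellite level was 21040 to 27930 CPM in the ganglia, 3122 to 8559 CPM in the cord and 1046 to 1227 CPM in paw.

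Within the nervous tissues, Vim and Nes peaked in other samples than the neuronal members. Nefl, Nefm, Nefh, Prph and Ina were each highest in DRG sample 2 and in spinal cord sample 2, whereas Vim and Nes were each highest in DRG sample 1 and in spinal cord sample 3. In paw this split was not seen, as Nes was highest in sample 3 together with Nefl, Nefm, Nefh and Ina, and Vim in sample 2 together with Prph. In spinal cord sample 3, Vim was at 1.40 times and Nes at 1.76 times the mean of the tissue. The summed fibroblast markers were at 1.71 times that mean in the same sample, with 7 of 7 genes highest there, and the Schwann and satellite cell markers at 1.71 times, with 7 of 8 highest. The endothelial and pericyte markers were at 1.23 times (7 of 8 highest), the astrocyte markers at 0.917 times and the pan-neuronal genes at 0.867 times. DRG sample 1 showed the same set of lists high, with 6 of 7 fibroblast and 5 of 8 Schwann and satellite markers highest there, at 1.27 and 1.19 times the mean. No marker of these 5 lists had 0 reads in any library. Their part in the levels of Vim and Nes was not tested.

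**Figure D5:**
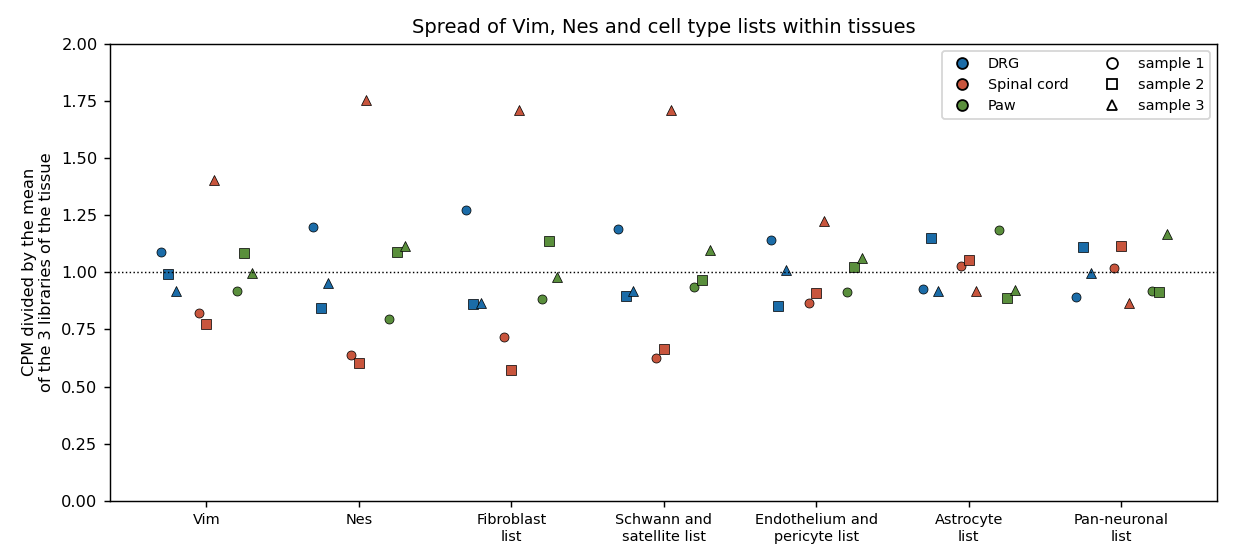
Vim, Nes and the summed CPM of 5 marker lists in each library, each divided by its mean over the 3 libraries of the tissue. Spinal cord sample 3 lies at 1.40 for Vim, 1.76 for Nes and 1.71 for the fibroblast and the Schwann lists, and at 0.867 for the pan-neuronal list.

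For each member the genes with the most similar profile were taken as those with the smallest root mean square difference of centred log2 CPM over the 9 libraries, among 11239 genes with a mean of at least 10 CPM. These libraries share 3 tissues, so likeness mostly reflects the 3 tissue levels. Where a neighbour had 3 or fewer reads in a paw library, its paw value was set largely by the prior count of 2 reads, and its likeness rests on DRG and spinal cord. This held in some or all paw libraries for Gpr158 (0 to 4 reads), Th (1 to 2), Tlx3 (0), Cckar (0 to 1), Nell2 (2 to 7) and Olfm3 (0 to 1). Nefl and Nefh were each other's nearest gene, at a difference of 0.16 (log2). Nefm lay nearest to Nefh (0.24), then to Ctnna2 (0.26), a catenin of neuronal adhesion, and to Nefl (0.26). Ctnna2 was the third for Nefl (0.37), and Gpr158, an orphan receptor, the third for Nefh (0.42). Prph was nearest to Th (0.24), which encodes tyrosine hydroxylase, then to the transcription factor gene Tlx3 (0.28) and the cholecystokinin receptor gene Cckar (0.40). Ina was nearest to Nell2 (0.10), a secreted neuronal protein, then to Gpr162 (0.23) and Olfm3 (0.28). Vim was nearest to Olfml2b (0.13), the actin-capping gene Capg (0.16) and the amino acid transporter gene Slc1a5 (0.18). Nes was nearest to Il16 (0.14), Arhgap19 (0.21) and the cadherin gene Cdh19 (0.22), which is also a member of the Schwann and satellite list.

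The filament genes outside the 7 had both directions. Of 9 others that were tested, 5 were higher and 4 lower in DRG than in spinal cord. Of all genes tested, 29% were higher and 30.6% lower. The median log2 fold change of the 9 was 0.61 beside -0.02 over all genes. Gfap, the astrocyte filament that copolymerises with Vim, averaged 1000 ± 97.7 CPM in spinal cord, 3.01 ± 0.608 CPM in DRG and 1.33 ± 0.797 CPM in paw (SD, n = 3). Its difference between DRG and spinal cord was -8.37 ± 0.29 on the log2 scale, the reverse of the Vim difference of 2.22. The astrocyte markers moved with Gfap, with 6 of 6 lower in DRG and sums of 260 to 326 CPM there against 4846 to 5577 CPM in the cord, and their part was not tested. Per kb, Gfap averaged 378 CPM in spinal cord, between Nefl (478) and Nefh (315). Synm (synemin) and Sync (syncoilin), which join filaments to other structures, exceeded their spinal cord level in DRG by 2.49 ± 0.15 and 3.17 ± 0.20, and averaged 393 and 31.4 CPM there.

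In paw against DRG, 4 of the 9 were higher and 4 lower, where 80.5% of all genes tested passed. In paw against spinal cord 5 were higher and 3 lower, where 81.6% of all genes passed. The medians were -0.32 and 0.46. Des (desmin), the filament of muscle, averaged 626 ± 161 CPM in paw and 3.81 CPM in spinal cord. In DRG it measured 19.2, 30.7 and 5.84 CPM in samples 1 to 3 and followed the muscle markers given above. It was called higher in DRG than in spinal cord (2.29 ± 0.58, adjusted p = 0.0105), but not without DRG samples 1 and 2 (0.63, adjusted p = 0.158). Among the nuclear lamin genes, Lmna, the lamin that is abundant in stiff tissues, was highest in paw (629 CPM, against 168 in DRG and 58.4 in spinal cord), while the B-type genes Lmnb1 and Lmnb2 were lower in DRG than in the cord, at -1.21 ± 0.17 and -0.75 ± 0.09. Lmnb1 averaged 6.03 CPM in the ganglia, 13.9 CPM in the cord and 19.1 CPM in paw, and Lmnb2 19.9, 33.6 and 23.6 CPM. Of the lens filament genes, Bfsp2 averaged 10.2 CPM in spinal cord, 5.08 in DRG and 0.139 in paw, and Bfsp1 1.71, 2.62 and 2.09 CPM.

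Genes that link, chaperone, transport or degrade filaments had mixed directions. Of 20 tested, 11 were higher, 3 lower and 6 not called in DRG against spinal cord, with a median log2 fold change of 0.45. Over all genes tested, 59.6% passed in this comparison. Ppl (periplakin, a plakin linker) was higher in DRG by 3.02 ± 0.32. Among the linker genes that were lower, Evpl was at -2.80 ± 0.19 on the log2 scale and Macf1 was 2.01-fold lower. Kif5a, the motor that carries neurofilaments along axons, averaged 2060 CPM in DRG against 2163 CPM in the cord and was not called (-0.07 ± 0.20, adjusted p = 0.782).

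In paw, 5 of these 20 genes were higher and 12 lower than in DRG (median -0.59). Against spinal cord 8 were higher and 10 lower (median -0.31). Of all genes tested, 80.5% and 81.6% passed in these comparisons. Ppl and Evpl, which are components of the epidermal envelope as well, rose above DRG by 7.12 ± 0.27 and 7.74 ± 0.20 in paw, and above spinal cord by 10.14 ± 0.32 and 4.94 ± 0.17. They moved with the keratinocyte markers given above, whose part was not tested. Kif5a was lower by -7.73 ± 0.27 and -7.80 ± 0.27, and Cdk5r1, the activator of the neurofilament kinase Cdk5, by -2.02 ± 0.14 and -2.88 ± 0.14. The small heat shock gene Hspb8 was not called in paw against DRG (0.03 ± 0.11, adjusted p = 0.787), and the linker gene Dst was not called in paw against spinal cord (-0.29 ± 0.15, adjusted p = 0.0928).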

How the data were processed

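RNA (about 500 ng a sample) was oligo-dT selected, prepared with a stranded dUTP kit and read as 50 bp single ends, per the labels' protocols. TopHat2, HTSeq, bcl2fastq and the mm9 genome are listed in the submitters' processing notes; no version, gene model or strand setting is given in these sources. The authors deposited whole-number read counts per gene symbol. The 5 summary rows, with 42.9 to 59.3% of a file's total, stayed out. Titles gave the tissue groups, and no library repeated another (chi-square per degree of freedom 7.30 to 36.7). Counts of all 9 libraries were fitted with tissue as the factor (6 residual degrees of freedom), using edgeR 4.0.16 (R 4.3.3) with filterByExpr, TMM, robust glmQLFit and glmQLFTest, with Benjamini-Hochberg adjustment over 16091 genes. A gene was called at an adjusted p under 0.05. The standard error is the log2 fold change divided by the square root of F. The functions were tested on simulated data. Single values were compared by exact permutation (scipy 1.17.1). Log2 CPM used a prior count of 2. Floors cover counting error only. Lengths are those of the GENCODE M21 transcript with the longest coding sequence (GRCm38), so values per kb assume that isoform.

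The members and gene lists were chosen with earlier results of these data known. Named genes are the members, 9 other filament genes, per comparison the 2 largest called changes in each direction and the most expressed uncalled gene of 20 linker and handling genes, and the 3 nearest profiles of each member. A gene that this rule takes is not reported here. Alternatives were DESeq2 1.42.0, limma-voom (limma 3.58.1), other scaling, no filter, fewer libraries and a replicate block.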

Additional observations from a re-analysis of the deposited data

How the results depend on the processing

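All counts of members called, at 7, 6 and 6 for DRG against spinal cord, paw against DRG and paw against spinal cord, were the same under every alternative run, and the genes called stayed within 1.5 times. Leaving out 1 library gave 8528 to 9646, 12467 to 12765 and 12659 to 13201 genes called. Relative to pan-neuronal genes, the DRG minus spinal cord difference of Nefm turned to -0.086 when Snap25, Elavl3 and Eno2 were left out of the reference, a choice added after the data were seen. In the gene tests a sign turned only for values that were not called. Over the fits that left out 1 library, the log2 fold change of Kif5a in DRG against spinal cord ran from -0.20 to 0.20, that of Hspb8 in paw against DRG from -0.058 to 0.17, that of Vim in paw against DRG from -0.0055 to 0.12, and that of Nes in paw against spinal cord from -0.72 to 0.25. The libraries whose omission turned the sign were DRG sample 2 and spinal cord sample 3 for Kif5a, DRG sample 1 and paw sample 1 for Hspb8, DRG sample 3 for Vim and spinal cord sample 3 for Nes. Kif5a was at 0.14 without DRG samples 1 and 2 and at 0.21 without spinal cord samples 1 and 3, and Nes at 0.27 without the latter. The cause was not tested. Where 1 library was left for a tissue, it was assumed to vary like the others. Calls of Bfsp1 and Des in DRG against spinal cord, Lmnb2 in paw against DRG and Lmnb1 in paw against spinal cord were lost under 1 or more alternatives, and Dst in paw against spinal cord was called (adjusted p = 0.0398) when edgeR used those 2 tissues alone. Whether replicate numbers pair the samples could not be decided from the counts. Deviations of same-numbered samples correlated at -0.131 to 0.272, over 0.1 in 2 of 9 pairs. Those of differently numbered samples ran from -0.449 to 0.342. The replicate block called 9500 genes in DRG against spinal cord in place of 9584 and left the members' calls at 7, 6 and 6. The median log2 fold change of all genes in paw against DRG was -0.02 with TMM, 0.10 with upper quartile factors and 0.09 with no scaling, and no member called with TMM changed direction under these.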
